A study of Drosophila melanogaster with 4 samples.

Results

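Dynein heavy chains are the large motor proteins whose ATPase activity slides the microtubules of the axoneme past each other and so bends the sperm tail. The genes described here are 10 axonemal dynein heavy chain genes of *Drosophila melanogaster*, listed by name, and their members on the array are the probe sets that the array annotation gives to exactly 1 of these genes. They came to 12 of the 18769 probe sets that are not controls. *kl-2*, *kl-3* and *kl-5* lie on the Y chromosome and hold 5 of these probe sets. The other 7 genes, *Dhc16F* on the X chromosome, *Dhc36C* on 2L, *Dhc62B* on 3L, and *Dhc93AB*, *Dhc98D*, *CG3339* and *CG9492* on 3R, have 1 probe set each.

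The study measured RNA in testes of males that lack *nsr* (*CG3875*), and the Y-linked heavy chain genes are among the male fertility genes it asked about. The *nsr* mutant carries a null allele made by ends-in gene targeting, in which most of the transcribed part of the gene is deleted in every cell of the fly. The WT flies are a wild-type recombinant line recovered in the same targeting experiment, so both lines went through the same procedure and share its genetic background. All flies were males aged 0 to 2 days, and seminal vesicles were taken off the testes at dissection. There were 2 arrays of *nsr* mutant testes and 2 of WT testes, each from its own RNA extraction. Whether the extractions came from separate groups of flies is not stated, so the p-values rest on a spread between samples that may be purely technical.

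An axoneme carries outer dynein arms and several kinds of inner arm, and each kind is built on its own heavy chains. In *Drosophila* such axonemes are found only in sperm and in the cilia of sensory neurons. The Y chromosome is needed for male fertility but not for viability. *kl-5* encodes a chain of the outer-arm beta class and *kl-3* one related to the outer-arm gamma class, and loss of either removes outer arms from the sperm tail. The Y-linked heavy chain genes are transcribed in primary spermatocytes and have very large introns rich in repeats.

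The arrays matched their labels at the targeted gene. *nsr* read 23.2 and 27.6 in mutant testes, against 549 and 554 in WT testes, a log2 difference of -3.78 (SE 0.10, limma adjusted p = 0.00837). It was the 1 probe set of 18769 called at an adjusted p under 0.05, or 0.00533% of the array. The highest of 70 negative control probe sets stood at 8.80 and 5.88 on the mutant arrays and at 8.92 and 8.66 on the WT arrays, and a probe set is called above background where it exceeds this value on its array. By that measure 11 of 12 germline markers of the testis were above background on all 4 arrays, *vas* on none. Some markers of other cells were above background on all arrays too. They were 3 of 4 muscle genes and 2 of 2 ejaculatory duct and bulb genes. Of accessory gland genes 2 of 6 were, and of somatic testis and fat body genes 2 of 5 each. The summed intensity of the 4 muscle genes was 149 and 147 in mutant testes and 106 and 119 in WT testes. *Act88F* made 77.6 and 56.1 of it in mutant testes and 36.2 and 26.8 in WT testes. The sum of 2 ejaculatory duct and bulb genes was 706 and 798 in mutant testes and 850 and 952 in WT testes. *PebIII* made 688 and 773 of it in mutant testes and 823 and 939 in WT testes. *Dup99B* read 18.5 and 25.4 in mutant testes and 26.2 and 13.2 in WT testes. For 6 accessory gland genes the sum was 426 and 537 in mutant testes and 425 and 477 in WT testes. *Acp95EF* made 350 and 424 of that in mutant testes and 345 and 378 in WT testes, and *Acp26Aa* was above background on no array. For 5 somatic testis genes the sum was 198 and 144 in mutant testes and 203 and 201 in WT testes (with *tj* and *upd1* on none). For 5 fat body genes it was 83.7 and 76.6 in mutant testes and 55.8 and 102 in WT testes (with *Yp1* and *Yp2* on none). The part of these other cells in the results that follow was not tested.

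None of the 12 heavy chain probe sets was called different between the genotypes with limma, and adjusted p-values lay between 0.690 and 0.996. At an unadjusted p under 0.05 there was 1, that of *Dhc93AB*, beside 7.13% of all probe sets. The separation of the arrays was uneven among the genes. In *kl-2*, *kl-3*, *Dhc93AB* and *CG9492* the higher mutant array was under the lower WT array, 4 of 12 probe sets beside 24.9% of the array. In *CG3339* the lower mutant array was over the higher WT array, 1 of 12 beside 10.2%. Of the 6 heavy chain probe sets above background on all 4 arrays, 2 had the mutant below WT and 0 above, beside 27.7% and 7.86% of the 9743 array probe sets that met the same condition. With 2 arrays per genotype these shares are near those of the array. The lack of a call says little about the Y-linked genes. The 1 call on the array, *nsr*, rested on a log2 difference of -3.78. A mutant signal of 0 would have read only -1.38 for *kl-2*, -1.13 for *kl-3* and -0.59 for *kl-5*.

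**Figure D1:**
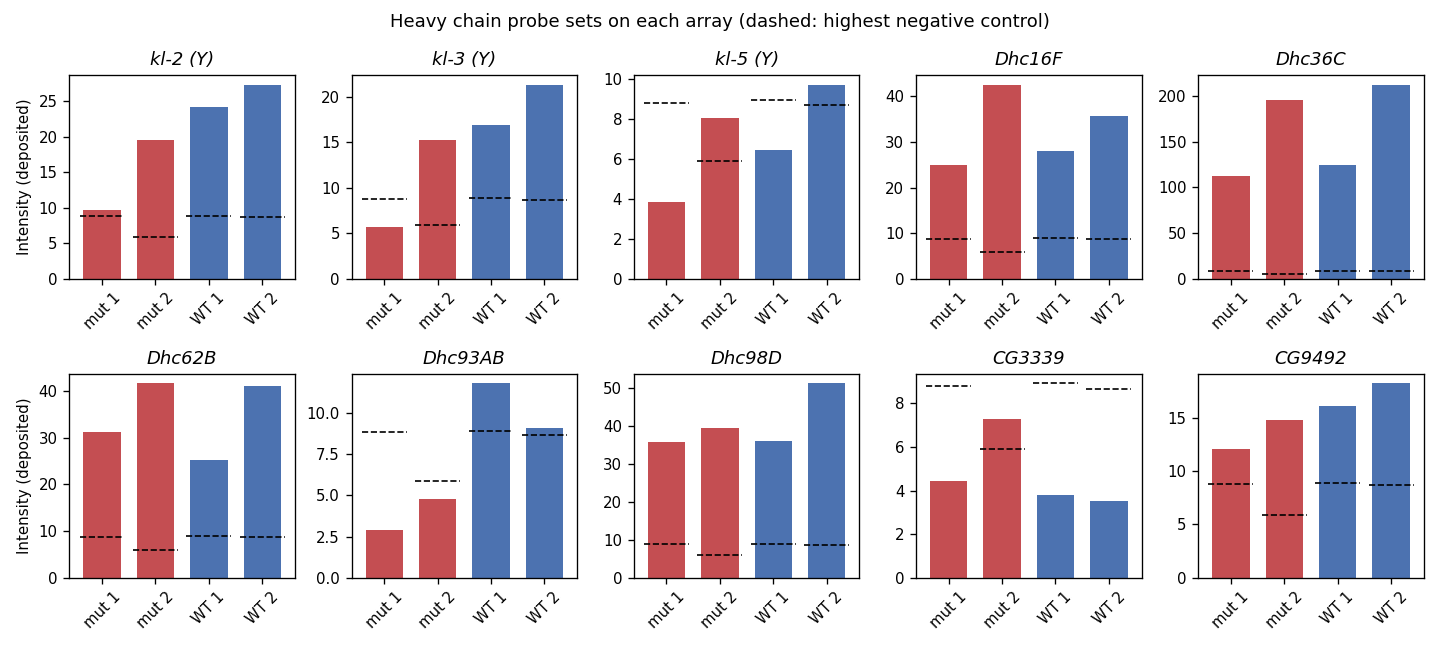
Deposited intensity (vertical axis, linear, from 0, with its own range in each panel) of the brightest probe set of each of the 10 heavy chain genes on the 2 *nsr* mutant arrays and the 2 WT arrays. *kl-2*, *kl-3*, *Dhc93AB* and *CG9492* have both mutant arrays below both WT arrays, beside 24.9% of all array probe sets. *CG3339* has them above, beside 10.2%. In all 10 panels mutant 1 is lower than mutant 2, beside 68.5%.

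The brightest *kl-2* probe set read 9.71 and 19.6 in *nsr* mutant testes, against 24.1 and 27.3 in WT testes. *kl-2* is thought to encode a chain of the inner-arm class. The genotypes did not overlap, with mutant 1 a little above its own background value of 8.80 and mutant 2 nearer to WT. The means were 14.7 ± 6.99 in mutant testes and 25.7 ± 2.25 in WT testes (SD, n = 2 each), so the mutant mean was 56.9% of the WT mean, and single mutant to WT pairs gave 35.5% to 81.2%. On the scale of log2(intensity + 16), used here for every fitted difference, *kl-2* differed by -0.46 (SE 0.18, 95% interval -0.93 to 0.0044, adjusted p = 0.703). The constant of 16 shrinks the differences of dim genes: a complete absence of *kl-2* signal in the mutant would have read -1.38. The other *kl-2* probe sets were above background on no array. They read 2.79 and 0.155 in mutant testes with 0.816 and 0.111 in WT testes, and 0.652 and 0.173 in mutant testes with 0.211 and 1.54 in WT testes, and no fold is given for them.

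*kl-3* read 5.70 and 15.3 in *nsr* mutant testes, against 16.9 and 21.3 in WT testes. Mutant 1 was the 1 array on which it was not above background, and mutant 2 lay just under the lower WT array. The means as measured were 10.5 ± 6.77 in mutant testes and 19.1 ± 3.15 in WT testes (SD, n = 2 each), and no ratio is given because 1 of the 2 mutant values is not above background. The fitted difference was -0.43 (SE 0.20, 95% interval -0.95 to 0.10, adjusted p = 0.730), where a mutant signal of 0 would have read -1.13.

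*kl-5* read 3.86 and 8.01 in *nsr* mutant testes, against 6.44 and 9.70 in WT testes. The genotypes overlapped, and only mutant 2 and WT 2 were above background. Mutant 2 exceeded the background value of its own array, 5.88, but not that of any other array. The means as measured were 5.94 ± 2.94 in mutant testes and 8.07 ± 2.30 in WT testes (SD, n = 2 each), and rest in both genotypes on 1 array above background. The fitted difference was -0.14 (SE 0.14, 95% interval -0.50 to 0.23, adjusted p = 0.886) and could not have gone below -0.59. Without mutant 1 it was -0.00019. With WT 1 not above background and -0.59 the lowest possible difference, a loss of *kl-5* RNA was hardly detectable on these arrays.

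**Figure D2:**
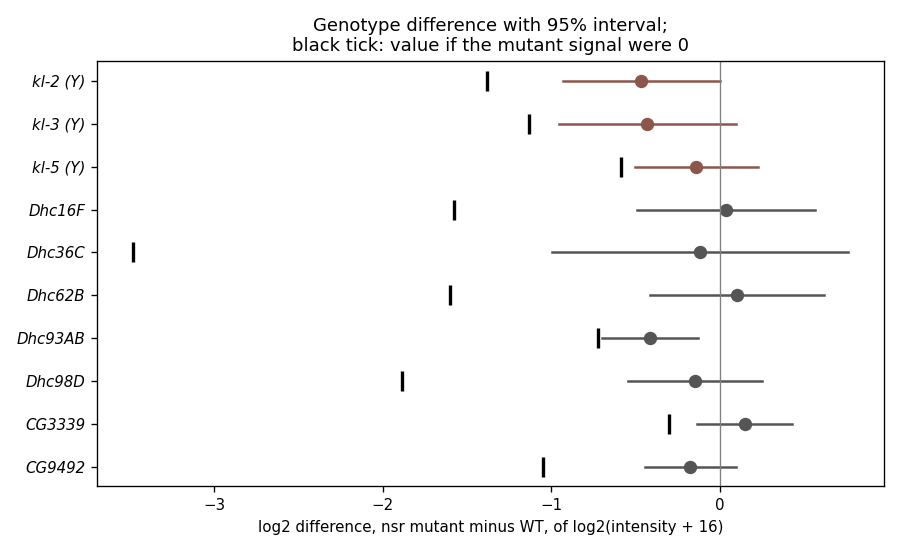
Difference in log2(intensity + 16), *nsr* mutant minus WT (horizontal axis), with its 95% interval from limma, for the brightest probe set of each heavy chain gene. Black ticks mark the value that a mutant signal of 0 would give, which is -1.38 for *kl-2* but only -0.59 for *kl-5*.

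Of the heavy chains that are not Y-linked, *Dhc93AB* stood furthest apart for its spread. It read 2.92 and 4.74 in *nsr* mutant testes, against 11.8 and 9.07 in WT testes. *Dhc93AB* encodes a chain of the outer-arm beta class, like *kl-5*. Both WT arrays were above background and neither mutant array was, so the mutant has only an upper bound, and the signal was at least 1.44-fold lower in the mutant when the mutant arrays are set at the lowest value above background or their own, whichever is higher. The measured means were 3.83 ± 1.29 in mutant testes and 10.4 ± 1.91 in WT testes (SD, n = 2 each). The fitted difference was -0.41 (SE 0.11, 95% interval -0.70 to -0.13), where a mutant signal of 0 would have read -0.72. Its limma p was 0.0141 before and 0.690 after adjustment over the array.

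*CG9492*, listed in the gene table with *Dnah5* as a synonym, read 12.1 and 14.7 in *nsr* mutant testes, against 16.1 and 18.2 in WT testes. The genotypes did not overlap and all 4 arrays were above background. The mutant mean of 13.4 ± 1.89 was 78.3% of the WT mean of 17.1 ± 1.5 (SD, n = 2 each), a fitted difference of -0.17 (SE 0.10, adjusted p = 0.777). *CG3339* read 4.44 and 7.29 in mutant testes, against 3.8 and 3.52 in WT testes. Mutant 2 was its 1 array above background, and the fitted difference was 0.15 (SE 0.11, adjusted p = 0.819).

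The remaining 4 genes were above background on all arrays and overlapped between the genotypes. *Dhc36C*, which encodes an inner-arm chain, read 113 and 196 in mutant testes, against 124 and 213 in WT testes. Its arrays paired by number rather than by genotype, and its fitted difference of -0.12 had a 95% interval of -1.0 to 0.76. *Dhc16F* read 24.96 and 42.5 in mutant testes, against 28.0 and 35.6 in WT testes, with both mutant arrays outside the WT values on either side and a difference of 0.04 (95% interval -0.49 to 0.57).

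*Dhc62B*, another inner-arm chain, read 31.1 and 41.6 in mutant testes, against 25.3 and 41.0 in WT testes, a difference of 0.10 (95% interval -0.41 to 0.62). *Dhc98D* read 35.6 and 39.4 in mutant testes, against 35.9 and 51.1 in WT testes, a difference of -0.14 (95% interval -0.54 to 0.25). WT 2 was the high array of *Dhc98D* and the other 3 lay close together. Adjusted p-values of these 4 genes were 0.891 to 0.996, and all of these intervals but that of *Dhc62B* take in the *kl-2* difference of -0.46. In bulk testes, fewer cells of a type and less RNA per cell cannot be told apart for any of these genes.

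The Y-linked genes were then set against the other heavy chains within each array. The mean log2(intensity + 16) of the 3 Y-linked genes was 4.48 and 4.90 in *nsr* mutant testes and 4.95 and 5.11 in WT testes. That of the other 7 genes was 5.29 and 5.59 in mutant testes and 5.39 and 5.64 in WT testes. The Y-linked mean was lower in both mutant arrays than in either WT array, a separation that 24.9% of single array probe sets also had. The mean of the other genes overlapped. Y-linked minus other came to -0.81 and -0.68 in mutant testes, against -0.44 and -0.52 in WT testes, a difference of -0.26 with a pooled SD between arrays of 0.075. The sizes within an array depend on the probes, and only the difference between the genotypes is read. *kl-3* and *kl-5* were not above background on every array, and with the genes that were, *kl-2* against 5 others, the difference was -0.41. The members were known when this score was chosen and it carries no test. The median fitted difference was -0.43 over the Y-linked genes and -0.12 over the others, beside -0.04 over the whole array and -0.08 over probe sets above background on all arrays.

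**Figure D3:**
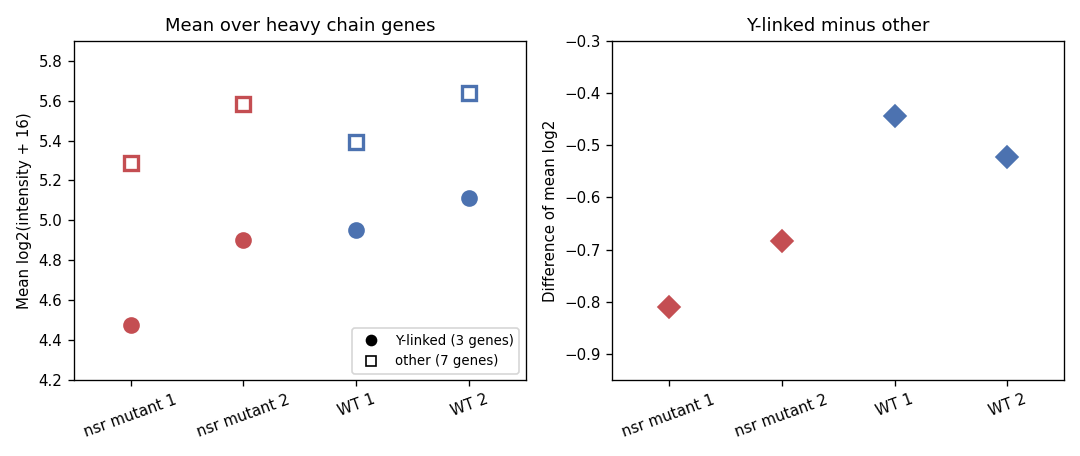
Mean log2(intensity + 16) of the 3 Y-linked and the 7 other heavy chain genes on each array (left) and the Y-linked minus the other mean (right). The difference is -0.81 and -0.68 on the *nsr* mutant arrays and lies below both WT arrays, at -0.44 and -0.52.

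The 2 mutant arrays differed in how far the Y-linked genes lay below WT. Against the WT mean, *kl-2* stood at -0.70 on the log2 scale in mutant 1 and at -0.23 in mutant 2, and *kl-3* at -0.16 in mutant 2, its value in mutant 1 being below background. All 10 genes were lower in mutant 1 than in mutant 2, as were 68.5% of all array probe sets, and 8 of 10 were lower in WT 1 than in WT 2, beside 71.5%. The 6 genes above background on all arrays had the lower value in replicate 1 of both genotypes, as had 67.2% of array probe sets above background on all arrays. Mutant 1 minus mutant 2 had a median of -0.47 over the Y-linked genes and -0.19 over the others, beside -0.14 over the array probe sets above background. For WT 1 minus WT 2 the medians were -0.18 over the Y-linked genes and -0.23 over the others, beside -0.18. For *kl-2* the gap between the mutant arrays was about as large as the difference between the genotypes, at -0.47 against -0.46. As measured it was -0.53 against -0.43 for *kl-3* and -0.27 against -0.14 for *kl-5*, but there mutant 1 was below background in both genes. A gap like that of *kl-2* was not limited to the Y: *Dhc16F* gave -0.51 for mutant 1 minus mutant 2 and -0.23 for WT 1 minus WT 2.

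**Figure D4:**
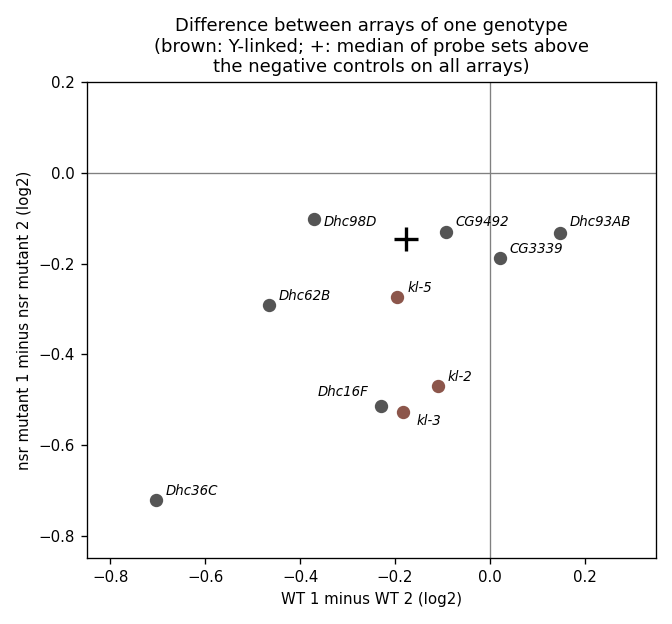
Difference in log2(intensity + 16) between the 2 *nsr* mutant arrays (vertical axis) and between the 2 WT arrays (horizontal axis) for each heavy chain gene. *kl-2*, *kl-3* and *Dhc16F*, which is X-linked, lie lower than the array median (cross) on the mutant axis and near it on the WT axis, and *Dhc36C* is low on both.

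Intermediate and light chains and assembly genes of the dynein arms gave 0 limma calls, and 0 at an unadjusted p under 0.05. Of 7 intermediate and light chain genes of the axonemal arms all had a probe set, 5 of them were above background on all arrays, and the median difference was -0.04. Their range ran from -0.35 for *Sdic1* to 0.04 for *CG10859*. *Sdic1*, a sperm-specific intermediate chain from a cluster of near-identical copies that its probes may not separate, read 431 and 595 in *nsr* mutant testes, against 603 and 696 in WT testes, and was the 1 gene of the list whose genotypes did not overlap. Of 12 genes for docking or preassembly of the arms, 10 had a probe set, with a median of 0.08 and a range of -0.53 (*dtr*) to 0.22 (*CG13202*). *dtr* read 153 and 355 in mutant testes, against 327 and 368 in WT testes. It was low in mutant 1 alone. The 1 gene of these 10 without overlap was *CG17669*, with mutant above WT, at 364 and 385 against 340 and 350. That direction held for 7.86% of array probe sets above background on all arrays.

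The cytoplasmic heavy chain *Dhc64C*, a motor for transport inside the cell, read 64.6 and 79.8 in *nsr* mutant testes, against 83.1 and 99.3 in WT testes (difference -0.28, adjusted p = 0.743). The mutant arrays lay below the WT arrays, as in 24.9% of all probe sets. They did so too for *btv*, the heavy chain of transport within cilia. It read 3.78 and 6.67 in mutant testes and 8.50 and 8.07 in WT testes. Only mutant 2, the array with the lowest background value, was above background there. *Dnah3*, an axonemal heavy chain gene found in the annotation and not among the 10, overlapped at 46.2 and 59.6 in mutant testes and 50.03 and 82.6 in WT testes. These are the brightest of 3 probe sets of *Dhc64C* and of 5 of *Dnah3*. The dimmer ones were above background on no array and did not share 1 direction. Of 4 other genes of the axoneme, *Tektin-A*, a filament protein of the microtubule wall, had the lowest difference, -0.42 (adjusted p = 0.690), at 760.3 and 760.5 in mutant testes and 908 and 1147 in WT testes.

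Of 9 other Y-linked genes 4 had a probe set, all of them above background on all arrays, with a median difference of -0.64. Limma called 0 of them, and 2 had an unadjusted limma p under 0.05, beside 7.13% of all probe sets. These 2, *ORY* and *Ppr-Y*, had both mutant arrays below both WT arrays, as had 27.7% of array probe sets above background on all arrays. *ORY* read 10.9 and 26.3 in mutant testes, against 48.2 and 43.8 in WT testes, and *Ppr-Y*, a predicted protein phosphatase regulator, read 10.9 and 31.7 in mutant testes, against 51.2 and 46.6 in WT testes. In both, mutant 1 was again the lower mutant array. *ARY* (-0.42) and *Pp1-Y2* (-0.09), a phosphatase catalytic subunit, overlapped between the genotypes.

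**Figure D5:**
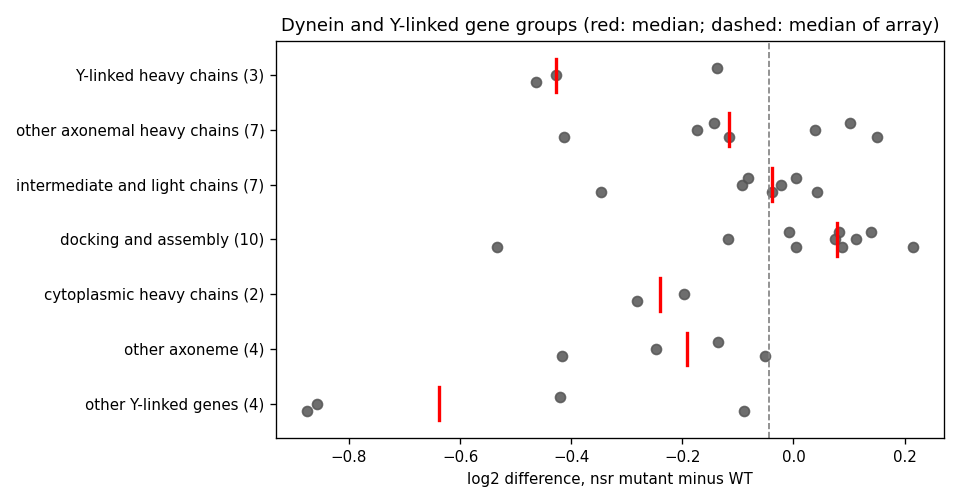
Difference in log2(intensity + 16), *nsr* mutant minus WT (horizontal axis), of single genes in each group, with group medians in red and the median of the array dashed. Y-linked heavy chains (median -0.43) and other Y-linked genes (-0.64) lie to the left of the other heavy chains (-0.12) and of the intermediate and light chains (-0.04).

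The genes whose values over the 4 arrays were most like those of *kl-2* depended on the constant. Among 8607 single-gene probe sets above background on all arrays, the nearest to *kl-2* by root mean square difference of mean-centred log2(intensity + 16) was *Letm1*, a mitochondrial inner membrane protein, at 0.012. *Letm1* read 89.3 and 129 in *nsr* mutant testes, against 147 and 164 in WT testes. The next were *Prps*, a phosphoribosyl pyrophosphate synthetase gene, at 0.017, *CG32655* and *CG30015* at 0.020 each, and *Ppi1* at 0.024. In all, 35 probe sets lay within 0.05, a likeness over 4 arrays only. The intensities of the 5 named genes are far above the constant of 16, which shrank the *kl-2* difference more than theirs: their mutant means were 70.2% to 73.4% of the WT means, against 56.9% for *kl-2*. With a constant of 1, chosen after seeing the data, 3 probe sets lay within 0.05, the nearest that of *CG14073* at 0.025, and the 5 genes ranked between 136 and 262. *CG14073* read 14.1 and 28.0 in *nsr* mutant testes, against 33.8 and 40.2 in WT testes.

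Gene length moved with the genotype difference across the array. In the gene table *kl-2* spans 91086 bases, *kl-3* 226785 and *kl-5* 115237, and the other heavy chain genes 12587 (*Dhc62B*) to 32446 (*Dhc98D*). Over 8579 single-gene probe sets above background on all arrays, gene span and difference had a Spearman rho of -0.278. It is given as a description, since genes of 1 array share its RNA and a gene counts once for each probe set. The 858 probe sets of the longest genes had a median difference of -0.15 and the 858 of the shortest 0.02. All of the 10 heavy chain genes but *Dhc62B* belong by span to the longest group. Span had a rho of 0.014 with mutant 1 minus mutant 2. Signal from the 5′ over the 3′ end of transcripts, a measure of RNA integrity and labelling, was lower in both mutant arrays for 2 of 4 control transcripts. An actin control gave 0.745 and 0.687 in mutant testes and 0.823 and 0.783 in WT testes, and *Act5C* gave 0.229 and 0.227 in mutant testes and 0.297 and 0.264 in WT testes. The ratio overlapped for GAPDH, at 0.598 and 0.592 in mutant testes and 0.637 and 0.545 in WT testes, and for *eIF-4a*, at 0.321 and 0.355 in mutant testes and 0.348 and 0.367 in WT testes. The part of gene length and of RNA integrity in the values of *kl-2* and *kl-3* was not tested.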

How the data were processed

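Testis RNA was labelled with biotin and hybridised to 4 one-colour GeneChip *Drosophila* Genome 2.0 arrays. The authors deposited an intensity on a linear scale for every probe set. For the probe summary, background correction and scaling, the method was not given in the sources used here. Precision is limited by having 4 arrays. Of 18952 probe sets 183 controls were left out. Genes were named through the array annotation and a release 6 gene table, which held 13544 of 13647 single-gene IDs. *kl-3* and *kl-5* were matched by symbol, their annotated IDs being outdated. For several probe sets of a gene the brightest stands for it, and the other *kl-2* probe sets are given too. Levels of different probe sets are not comparable, so Y-linked minus other is read only between arrays.

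Genotypes were compared on log2(intensity + 16), arrays as deposited, with limma 3.58.1 (lmFit, eBayes; R 4.3.3) and Benjamini-Hochberg adjustment over 18769 probe sets (threshold 0.05). SAM, named in the study's methods, was not run, because its permutations allow few orders with 2 arrays against 2. The procedure was tested on simulated data. Members and gene lists were chosen with earlier results of these data known. Genes named were all members, *nsr*, at most the 3 highest and 3 lowest of each list, and the 5 nearest to *kl-2*. *Dnah3* was added after its annotation was seen. *CG14073*, markers at background on every array and 5′ to 3′ control transcripts were named after their values were seen. Alternatives covered the constant, scaling, filters, a variance trend, a replicate block and leaving out each array. Other assays of the study were not analysed here.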

Additional observations from a re-analysis of the deposited data

How the results depend on the processing

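No heavy chain probe set was called by limma under any alternative, at a lowest adjusted p of 0.251 for *kl-2* with arrays centred on the medians of their log2 values (chosen after seeing the data). The number of probe sets called over the array, 1 as reported, was 0 with a constant of 1, 3 with medians centred, 111 with log2 medians centred, 3 with quantile normalization, 2 with cyclic loess, 120 without probe sets below the median level, 137 without those below the 25th percentile, 2 with the replicate number as a block, and 0 whichever array was left out. Y-linked minus other, -0.26 as reported, was -0.57 with a constant of 1, -0.10 with 64, -0.39 without probe sets below the median level, -0.16 when a gene's probe sets were averaged, and -0.33 to -0.20 when 1 array was left out. *kl-5*, *Dhc93AB* and *CG3339* lie below the median level and drop out of the score there. Averaging takes in the *kl-2* probe sets that were above background on no array. A larger constant shrinks the differences of dim genes more. With a constant of 1 the differences were -0.85 for *kl-2*, -0.94 for *kl-3*, -0.43 for *kl-5* and -1.26 for *Dhc93AB*, and with 64 they were -0.19, -0.16, -0.044 and -0.13. Leaving out mutant 1 gave -0.23 for *kl-2*, -0.16 for *kl-3* and -0.00019 for *kl-5*. Over 137 alternatives of single members 8 turned sign: *Dhc36C* was 0.024 with medians centred, 0.24 without mutant 1 and 0.24 without WT 2 (range -0.48 to 0.24 with 1 array left out), *Dhc16F* -0.22 without mutant 2 and -0.08 without WT 1 (range -0.22 to 0.30), *Dhc62B* -0.04 without mutant 2 and -0.13 without WT 1, and *Dhc98D* 0.042 without WT 2. With 1 array left out, the lone array of its genotype is assumed to vary like the other pair. *nsr* lost its call with a constant of 1 (-4.39, adjusted p = 0.346) and whichever array was left out (-3.85 to -3.70). Replicate differences of same-numbered arrays correlated at 0.150 over all probe sets, so the numbers may only be names. With the block, adjusted p was 0.331 for *kl-2* and 0.335 for *kl-3*. Signal over background limits *kl-5*, *Dhc93AB* and *CG3339*.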
